A study of Mus musculus with 9 samples.

Results

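The genes described here are the ligands, receptors, secreted and membrane antagonists, Smads and direct target genes of the bone morphogenetic protein (BMP) and transforming growth factor beta (TGF-beta) pathways. They were taken by symbol from the full table of a Cuffdiff comparison, and 43 of 43 listed genes had a row, of 23277 named rows in all. The list holds 14 ligands, 10 receptors, 5 antagonists, 8 Smads and 6 target genes. The RNA came from microdissected posterior second heart field (pSHF), a mesodermal progenitor field that builds the atria and inflow of the heart, of mouse embryos at E10.5 on a mixed strain background. PolyA mRNA was sequenced from 4 Shh WT and 5 Shh KO libraries. Shh encodes Sonic hedgehog, a secreted ligand, and the labels state neither the allele nor any pooling of embryos. The comparison asks which transcripts of this tissue differ when Shh is lost.

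Ligands of this family are secreted dimers that bring together type I and type II receptor kinases at the cell surface. The type I receptor then phosphorylates a receptor-regulated Smad, which enters the nucleus with Smad4 and acts on target genes. BMP-type receptors act through Smad1, Smad5 and Smad9, and TGF-beta and activin receptors act through Smad2 and Smad3. Smad6 and Smad7 inhibit the pathway, and secreted proteins such as Noggin and Chordin bind the ligands before they reach a receptor. In the embryonic heart, BMP signals are known for roles in cardiac progenitor differentiation and in septum and cushion formation.

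Ligand genes held the only calls among the members, and both were higher in Shh KO. Gdf10 and Gdf2, which lie side by side on chromosome 14, rose 3.94-fold and 2.60-fold in the authors' deposited table. No receptor, antagonist, Smad or target gene was called. Calls are rows whose deposited q lies below 0.05. Cuffdiff tested 42 members. Calls higher numbered 2 (4.76%), where the share over the 13048 named tested rows was 1.56%. Calls lower numbered 0, where that share was 0.383%. At such shares, 0 calls in a list of a few genes is close to the background. At an unadjusted Cuffdiff p under 0.05 there were 6 members higher (14.3%), where all named tested rows gave 5.83%, and 1 lower (2.38%), where they gave 1.68%. The 6 were Gdf10, Gdf2, Tgfb3, Fst, Bambi and Tgfbr3, and the 1 was Inhba. The median log2 fold change of the 42 members was 0.14, and that of all named tested rows was 0.02. Positive fold changes made up 54.8% of the members and 54.9% of all named tested rows.

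The deposited tables give 1 pooled value per genotype and no value per library, so neither a standard deviation nor a new test over libraries was possible. Library depth is unknown. The precision of a fold change was approximated by 2 routes, by dividing it by the deposited test statistic and by reading it back from the deposited p-value. The p-values imply standard errors smaller than the statistic does, by a median factor of 2.1 over all named tested rows. Both are printed where a result turns on them, and ranges below are approximate 95% ranges from the p-value unless stated otherwise. Nothing in the labels ties each library to its own embryo or litter, so the p-values cover the spread between these libraries only, which may be technical.

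In the authors' deposited table, Shh itself had 15.7 FPKM in Shh WT against 5.44 in Shh KO (Cuffdiff q = 0.00554). Its row, chromosome 5, 28456840 to 28719209 (mm10), overlaps another named row. FPKM counts fragments per transcript length and library size. All 12 markers listed for the pSHF were tested, and 3 of them, Osr1, Foxf1 and Gli1, were called lower. Of the 12, 8 were negative and 4 positive, with a median log2 fold change of −0.14. The dissections also differed in markers of other cells, with 10 of 11 tested cardiomyocyte, 7 of 7 hepatoblast, 4 of 7 macrophage, 7 of 9 sensory neuron and 3 of 8 epicardial markers called higher, and 1 epicardial marker, Aldh1a1, called lower. Of 8 markers of limb mesenchyme and ectoderm, 1, Pitx1, was called higher, and 5 were positive and 3 negative. Of 7 foregut endoderm markers, 1, Shh itself, was called lower, and 6 were negative and 1 positive. In bulk tissue, a changed number of cells of a type and a changed amount of RNA per cell cannot be told apart.

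Gdf10 and Gdf2 are shown first by the sequence before their start sites, because they are the called members and neighbours in the genome. Both genes lie on the plus strand of chromosome 14, Gdf10 at 33923587 to 33935282 and Gdf2 at 33941039 to 33947198 (mm10), with 5.76 kb between the 2 rows. The windows below are the 250 bases before each RefSeq start (GRCm38.p6), at chr14:33923337-33923586 for Gdf10 and chr14:33940789-33941038 for Gdf2. Capitals mark matches to 2 motifs, searched on both strands. One is GTCTG, a core Smad box. The other is GATAAG, a motif of GATA factors. No matches overlap. In the Gdf10 window the Smad box lies on the opposite strand.
Gdf10: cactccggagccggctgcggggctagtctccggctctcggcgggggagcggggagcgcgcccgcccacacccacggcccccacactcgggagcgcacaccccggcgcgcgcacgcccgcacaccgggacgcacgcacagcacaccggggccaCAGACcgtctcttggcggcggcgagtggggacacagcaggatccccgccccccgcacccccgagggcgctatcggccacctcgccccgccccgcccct
Gdf2: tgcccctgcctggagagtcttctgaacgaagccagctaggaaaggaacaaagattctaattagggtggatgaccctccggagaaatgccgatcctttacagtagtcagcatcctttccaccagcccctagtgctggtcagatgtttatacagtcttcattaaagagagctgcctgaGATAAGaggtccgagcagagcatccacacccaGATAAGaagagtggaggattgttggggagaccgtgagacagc

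The Gdf10 window held 1 Smad box, 98 to 94 bases before the start, and no GATAAG. The Gdf2 window held 2 copies of GATAAG, at 74 to 69 and 42 to 37 bases before the start, and no Smad box. Among 32851 promoter windows of the same length, 42.2% held a Smad box and 6.55% held GATAAG. Neither window held GGCGCC, a GC-rich motif of BMP Smads present in 9.59% of all windows, or the Gli motif GACCACCCA, present in 0.225%. The motifs were chosen after these sequences were seen, and a match is a description of letters, not a binding site.

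The 2 promoters differ in base composition. The Gdf10 window was 78.8% G and C and held 35 CpG dinucleotides, more than 97.0% of all windows. The Gdf2 window was 50.4% G and C and held 5 CpG dinucleotides, close to the median of 6 over all windows. Windows were found for 31 of the 43 members, with a median of 22 CpG dinucleotides over 36 windows. Low CpG counts like that of Gdf2 were also found for Bmp10 (3), Inhba (3), Bmp5 (4), the 3 Bmpr1b windows (1 to 5) and 1 of the 2 Tgfbr1 windows (3), and high counts like that of Gdf10 for Id4 (35), Gdf11 (33), Bmpr1a (36), Acvr1 (46) and Acvr2a (49).

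Gdf10 encodes a secreted ligand also called BMP3b. The authors' deposited table lists it at 3.14 FPKM in Shh WT against 12.4 FPKM in Shh KO, which is 1.98 on the log2 scale (Cuffdiff q = 0.00554). The standard error was 0.63 from the statistic and at most 0.49 from the p-value, which sits at the table's smallest value of 5e-05. Its absolute fold change exceeded that of 99.2% of all named tested rows.

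Gdf2 encodes BMP9, a ligand of the endothelial receptor Acvrl1 that is known to be made in liver. The authors' deposited table lists it at 1.08 FPKM in Shh WT against 2.82 FPKM in Shh KO, which is 1.38 on the log2 scale (Cuffdiff q = 0.0235). Its standard error was 0.38 from the p-value and 0.81 from the statistic, and only the range from the statistic includes 0. A pseudocount of 1 FPKM reduced these to 0.87 for Gdf2 and 1.69 for Gdf10. Both calls were lost when p-values were taken from a normal distribution of the authors' deposited statistic (an alternative to the authors' own p-values, Benjamini-Hochberg adjusted p = 1.00 for Gdf2 and 0.402 for Gdf10). At a Cuffdiff q under 0.01 only Gdf10 was called.

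In the authors' deposited table the 7 hepatoblast markers summed to 132 FPKM in Shh WT against 472 in Shh KO, with a median log2 fold change of 1.77. The part of hepatoblast markers in the Gdf2 result was not tested. The 10 endothelial markers had 0 calls and a median of 0.16 with Cuffdiff, and 1 of them had an unadjusted p under 0.05. All 10 were positive, with values from 0.04 to 0.42, where 54.9% of all named tested rows were positive. Summed over the 10 called cardiomyocyte markers, the authors' deposited table gives 1138 FPKM in Shh WT against 2664 in Shh KO. The authors' deposited table gives summed FPKM of 19.3 against 55.1 for the 4 called macrophage markers. For the 7 called sensory neuron markers the sums were 43.2 against 89.6, again with Shh WT first. Among the listed markers, only called ones had FPKM values. The cardiomyocyte, macrophage and sensory neuron sums thus leave out uncalled markers, and their rise was fixed by that choice. Over all 7 tested macrophage and all 9 tested sensory neuron markers, the median log2 fold changes were 1.14 and 1.24. Whether Gdf10 followed any of these cells was not tested.

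**Figure D1:**
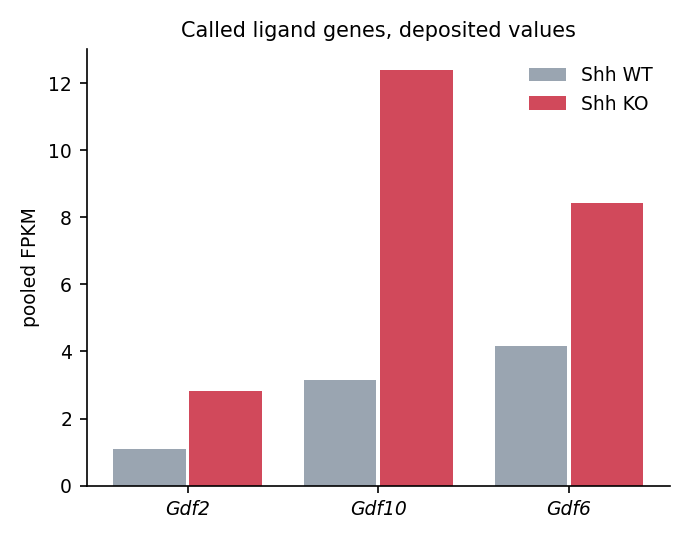
Pooled FPKM in Shh WT (grey) and Shh KO (red) for the 3 called ligand genes, 1 deposited value per genotype and no error bars because the tables hold none. Gdf10 reached 12.4 FPKM in Shh KO, and Gdf2 stayed the lowest of the 3 in both genotypes.

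The rows around the pair were not called. Within 500 kb of the Gdf2 start, 8 of 19 named rows were tested and Gdf10 and Gdf2 were the only 2 called. The other 6 tested rows had log2 values between −0.23 and 0.56 according to the authors' deposited table. Rbp3, the row next to Gdf2, had a deposited log2 ratio of 1.83 without a test in the authors' deposited table. Bmpr1a, a type I BMP receptor whose row starts 464 kb past the end of Gdf2, stood at −0.14 in the authors' deposited table (range −0.50 to 0.23).

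**Figure D2:**
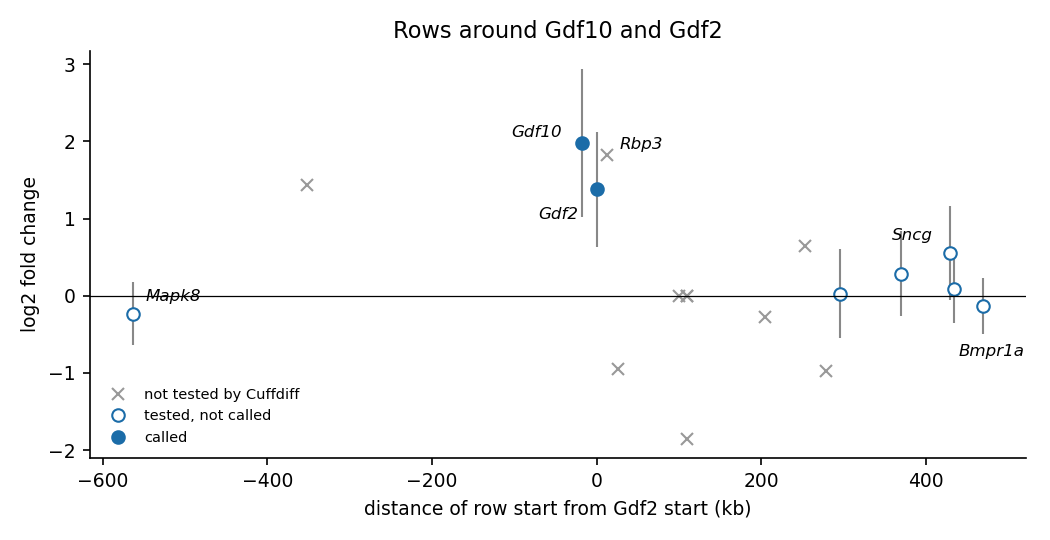
Log2 fold change (Shh KO over Shh WT) against the distance of each row's start from the Gdf2 start in kb, with filled circles for called rows, open circles for tested rows that were not called and crosses for rows without a test. Bars are approximate 95% ranges from the p-value. Gdf10 and Gdf2 sit above 1 while the 6 other tested rows lie between −0.23 and 0.56.

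The 6 BMP ligands with classic names were not called. Bmp4, a ligand needed for mesoderm formation, had a value of 0.20 in the authors' deposited table (log2 fold change, range −0.19 to 0.59). Its row also overlaps the predicted gene Gm15217. Bmp2, which acts in the atrioventricular canal, stood at 0.46 in the authors' deposited table (range −0.09 to 1.00). Bmp10, a ligand made by heart muscle of the trabeculae, stood at 0.46 in the authors' deposited table with a wider range of −0.36 to 1.27. The 11 tested cardiomyocyte markers had a median of 1.32 and values from 0.23 to 2.95. The Bmp10 range from the p-value ends at 1.27, below that median, while its range from the statistic, −1.28 to 2.19, includes it. Whether Bmp10 followed the cardiomyocyte markers was not tested. For Bmp7 the value was 0.14, for Bmp6 −0.04 and for Bmp5 −0.13 in the authors' deposited table.

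The 3 Tgfb genes had positive values and no call. Tgfb3, which encodes a TGF-beta ligand (chromosome 12, 86056743 to 86079041, mm10), had the largest, 0.64 in the authors' deposited table (range 0.16 to 1.11, Cuffdiff p = 0.00835, q = 0.256). Its range from the statistic, −0.35 to 1.62, includes 0. Tgfb1 stood at 0.46 in the authors' deposited table (p = 0.0661). A second row for Tgfb1 with the same span stood at 0.41 with a standard error of 2.03 from the statistic in the authors' deposited table. Tgfb2, the Tgfb gene known for heart septation and outflow defects when lost, stood at 0.19 in the authors' deposited table (range −0.18 to 0.56).

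Activin genes gave no call. Inhba, which encodes the activin A subunit (chromosome 13, 16014475 to 16027211, mm10), had the lowest value of all tested members, −1.37 in the authors' deposited table. Its standard error was 0.59 from the p-value and 1.13 from the statistic. The authors' Cuffdiff test gave p = 0.0198 and q = 0.457, so Inhba was not called. Inhbb, which encodes the activin B subunit, was the 1 untested member, with a deposited log2 ratio of 3.05 and a p of 1 in the authors' deposited table. Gdf11, a ligand of axial patterning, stood at −0.0021 in the authors' deposited table (range −0.47 to 0.46).

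**Figure D3:**
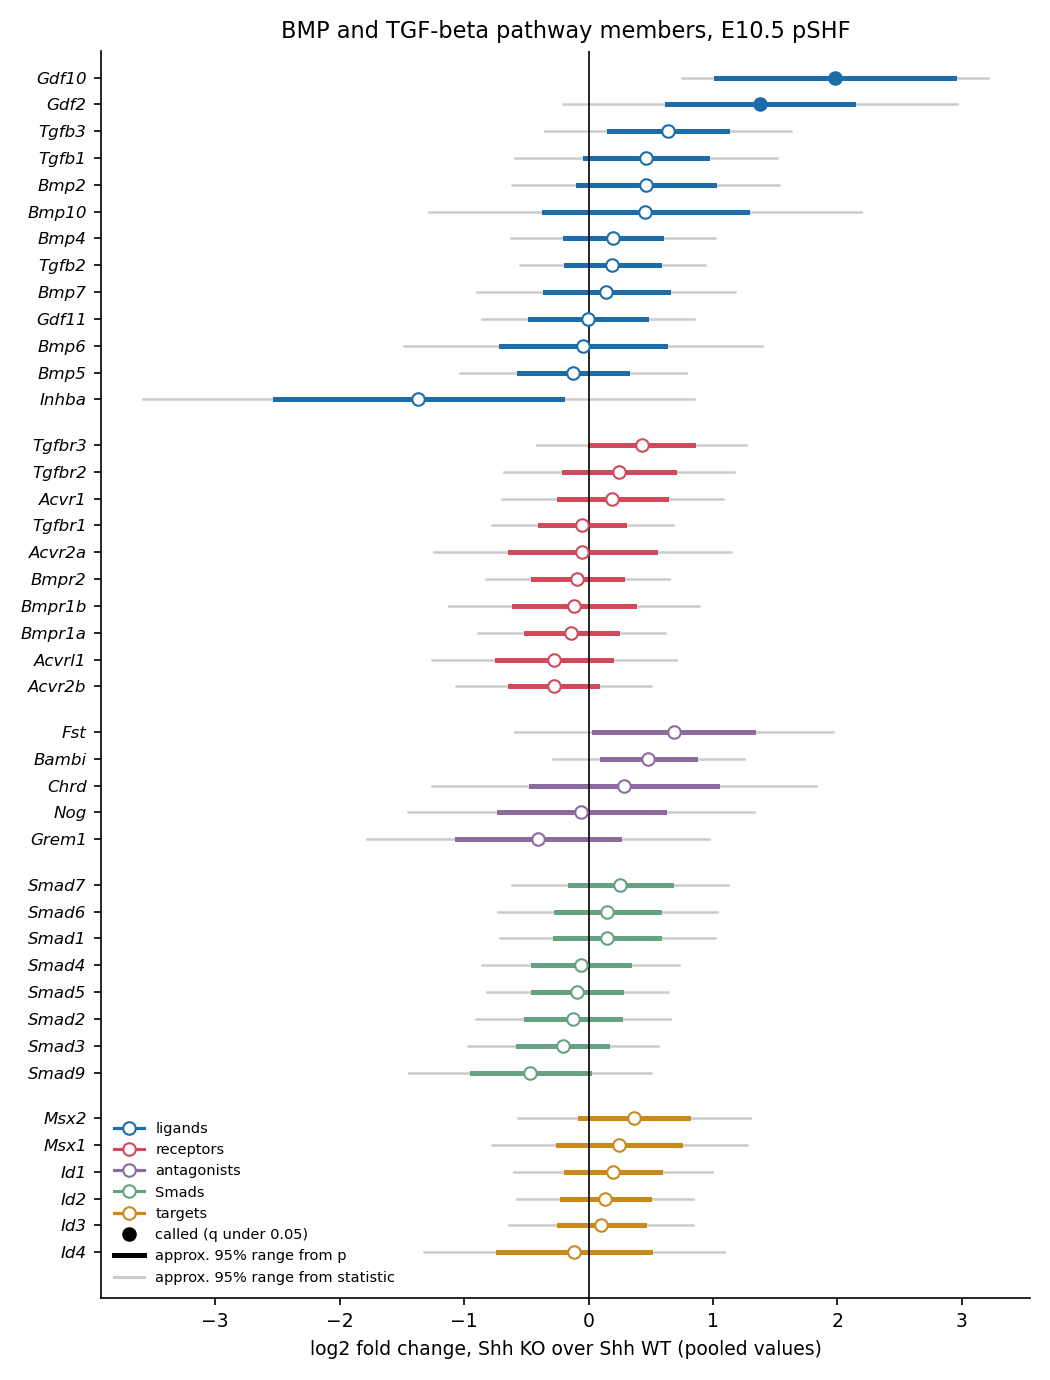
Log2 fold change (Shh KO over Shh WT) of the 42 tested members by role, with filled points for called genes. Coloured bars are approximate 95% ranges from the deposited p-value and grey bars those from the deposited statistic, which are wider. Gdf10 at 1.98 and Gdf2 at 1.38 stand to the right, Inhba at −1.37 to the left, and receptors and Smads lie close to 0.

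All 10 receptors were tested and 0 were called by Cuffdiff. Over all named tested rows, 1.56% were called higher and 0.383% lower. At an unadjusted p under 0.05 there was 1 receptor higher (10%), where all named tested rows gave 5.83%. The receptors' median log2 fold change was −0.07, and 7 of the 10 were negative. Of the BMP type I receptors, Acvr1 stood at 0.19 and Bmpr1b at −0.12 in the authors' deposited table. Acvrl1, or ALK1, the endothelial receptor that binds BMP9 and BMP10, stood at −0.28 in the authors' deposited table (range −0.74 to 0.18). Its sign was thus opposite to that of its ligand gene Gdf2, but its range includes 0.

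The type II receptors shared by BMPs and activins were all slightly negative. Bmpr2 stood at −0.09, Acvr2a at −0.05 and Acvr2b at −0.28 in the authors' deposited table. The Acvr2a row overlaps Orc4. For TGF-beta itself, the type I receptor Tgfbr1 stood at −0.05 and the type II receptor Tgfbr2 at 0.25 in the authors' deposited table. Tgfbr3, or betaglycan, a co-receptor that presents TGF-beta2 and binds inhibin, had the highest value of the receptors, 0.43 in the authors' deposited table (range 0.01 to 0.84, Cuffdiff p = 0.0423, q = 0.695). The range of Tgfbr3 from the statistic, −0.41 to 1.27, includes 0.

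Smads gave no call among 8 tested and 0 at an unadjusted Cuffdiff p under 0.05, with a median of −0.08. Over all named tested rows, 1.56% were called higher and 0.383% lower. The shares at the unadjusted p were 5.83% and 1.68%. Of the BMP Smads, Smad9 was the lowest at −0.47 in the authors' deposited table (range −0.94 to 0.0006, Cuffdiff p = 0.0503). Smad1 stood at 0.15 and Smad5 at −0.09 in the authors' deposited table. Smad2 and Smad3, which carry TGF-beta and activin signals, stood at −0.12 and −0.21, and the shared partner Smad4 at −0.06, in the authors' deposited table. The inhibitory Smads had positive values, 0.15 for Smad6 and 0.26 for Smad7 in the authors' deposited table. Smad6 lies 195 kb from Smad3 on chromosome 9, and the values of the 2 neighbours differ in sign without a call for either.

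How large a change of the receptors and Smads remains possible depends on the measure of error. The ranges from the p-value lay within a doubling or halving for 18 of these 18 genes. With the standard error from the statistic this held for 7 of 18. Over all 42 tested members the counts were 33 and 12, so a doubling cannot be set aside for most members by the wider ranges.

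Antagonist genes had a median standard error of 0.33 from the p-value, above the medians of 0.20 to 0.25 of the other 4 roles. Cuffdiff called 0 of the 5, where it called 1.56% of all named tested rows higher and 0.383% lower. Fst, which encodes follistatin, a binding protein for activins (chromosome 13, 114452262 to 114458787, mm10), stood at 0.68 in the authors' deposited table (range 0.05 to 1.32, Cuffdiff p = 0.0354, q = 0.629). Bambi, a membrane pseudoreceptor that is itself induced by BMP signals, stood at 0.48 in the authors' deposited table (range 0.11 to 0.86, p = 0.0121, q = 0.336). The ranges from the statistic include 0 for both, with a lower end of −0.59 for Fst and −0.29 for Bambi. Chrd (0.29), Nog (−0.06) and Grem1 (−0.41), which encode the secreted BMP binders Chordin, Noggin and Gremlin, had ranges that include 0 in the authors' deposited table. The Chrd row overlaps Thpo. At an unadjusted p under 0.05 there were 2 of the 5 (40%), both positive, where all named tested rows gave 5.83% higher.

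The target genes are known to be transcribed in response to BMP Smads. Of 6 tested, 0 were called by Cuffdiff and 0 had an unadjusted p under 0.05. Over all named tested rows, 1.56% were called higher and 0.383% lower. The shares at the unadjusted p were 5.83% and 1.68%. Id1, Id2 and Id3, inhibitors of basic helix-loop-helix factors and textbook BMP Smad targets, stood at 0.20, 0.13 and 0.10 in the authors' deposited table. Id4 stood at −0.12 in the authors' deposited table, with a wider range of −0.73 to 0.49. The homeobox genes Msx1 and Msx2 stood at 0.25 and 0.37 in the authors' deposited table, and the Msx1 row overlaps its antisense gene Msx1as. No source used here states the strand setting of the counting, so reads of Msx1 and Msx1as may not have been told apart. The targets' median was 0.17 and 5 of the 6 were positive, against 54.9% positive over all named tested rows. The ranges of Id1, Id2 and Id3 from the p-value end at 0.58, 0.48 and 0.45.

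**Figure D4:**
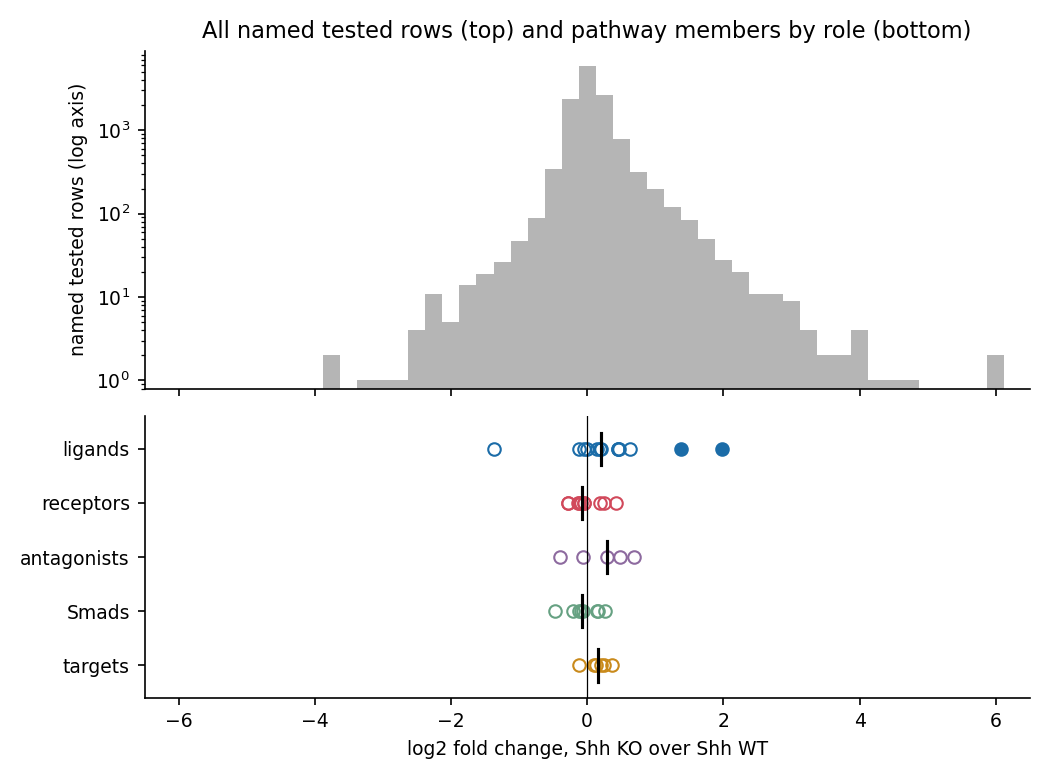
Top, the number of named tested rows in bins of log2 fold change on a log axis. Bottom, the tested members by role on the same x axis, with filled points for called genes and black bars for the median of each role. The role medians lie between −0.08 (Smads) and 0.29 (antagonists), and Gdf2, Gdf10 and Inhba lie outside the other members.

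Other genes of the 2 pathways were called at about the background share. Of 83 further ligands, receptors, modulators, intracellular regulators and responsive genes, 56 had a test with a numeric fold change. Ltbp2 was tested without one and left out. Cuffdiff called 1 of the 56 higher (1.79%), near the 1.56% over all named tested rows, and 0 lower, where that share was 0.383%. The median log2 fold change was 0.03. The called gene was Gdf6, a BMP-type ligand of joints and the dorsal neural tube (chromosome 4, 9844372 to 9862345, mm10). The authors' deposited table lists Gdf6 at 4.16 FPKM in Shh WT against 8.42 FPKM in Shh KO, a log2 value of 1.02 (Cuffdiff q = 0.00554, standard error 0.52 from the statistic). Among the further ligands 16 of 19 were untested, so most of them could not be compared.

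At an unadjusted Cuffdiff p under 0.05 there were 4 of these genes higher (7.14%), where all named tested rows gave 5.83%. There was 1 lower (1.79%), where all named tested rows gave 1.68%. Both shares were near the background. Amhr2, the type II receptor for anti-Müllerian hormone, stood at 1.07 in the authors' deposited table (q = 0.407). Tgfbi, a gene known to respond to TGF-beta, stood at 0.45 in the authors' deposited table (q = 0.467). Chrdl1, a secreted BMP antagonist, stood at −0.59 in the authors' deposited table (q = 0.603). The 16 intracellular regulators, which include the Ski and Smurf genes, gave 0 calls and 0 at an unadjusted p under 0.05. Over all named tested rows, 1.56% were called higher and 0.383% lower. The regulators had values from −0.43 to 0.33 and a median of −0.05. Responsive genes had 12 of 15 positive values (80%), where all named tested rows gave 54.9%. Their median was 0.14, and 0 were called.

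**Figure D5:**
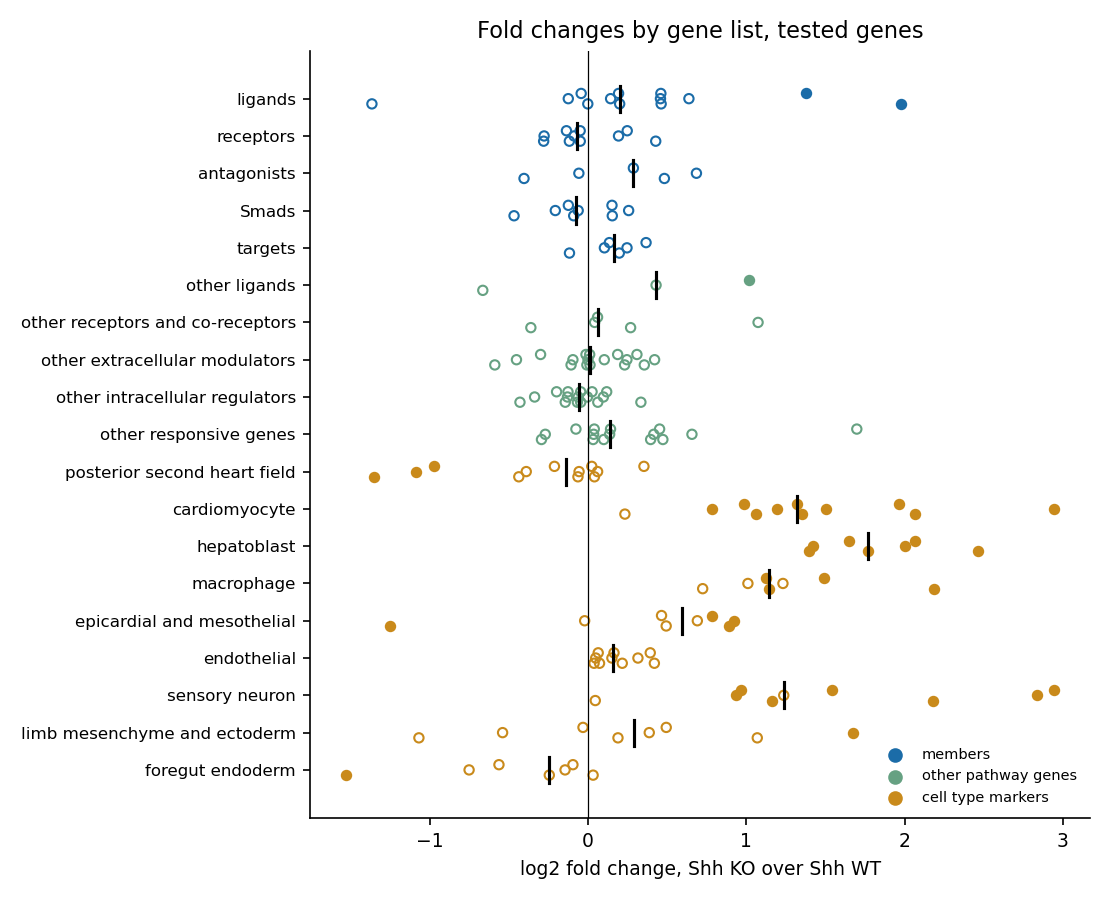
Log2 fold changes of tested genes by list, for members (blue), other pathway genes (green) and cell type markers (orange), with filled points for called genes and black bars for medians. The member lists have medians between −0.08 and 0.29, while the cardiomyocyte, hepatoblast, macrophage and sensory neuron marker lists have medians of 1.32, 1.77, 1.14 and 1.24.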

How the data were processed

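PolyA RNA libraries of 4 Shh WT and 5 Shh KO samples were grouped by their titles. Per the submitters' processing notes, TopHat2 2.0.10 and Cuffdiff 2.1.1 were used, and no source used here states the Cuffdiff options. The authors deposited a full table of 27198 rows that gives per row the log2 ratio, the Cuffdiff test statistic (a score), a p-value and a q-value, and a shorter table of 253 genes with 1 pooled FPKM per genotype and the ratio (fold) of these. The deposited log2 values have Shh KO as numerator, since they equal the FPKM log2 ratio of the shorter table within 1.07e-05 for 253 genes. A p-value under 1 marked a tested row (16944 rows). The named tested rows are those that also have a gene name and a numeric log2 value (13048 rows).

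Computed here (Python 3.11.15, pandas 2.3.3, scipy 1.17.1) were counts, medians and approximate standard errors: the fold change divided by the statistic, or by the normal quantile of the deposited p-value (added after seeing the data). Adjustments were tested on simulated data. A symbol with 2 rows used the row of smaller error. The notes name mm9, but 43 of 43 member rows overlap their GRCm38 (mm10) RefSeq gene, so positions are mm10, with 1 added to starts. Named were all members and other pathway genes with a p under 0.05. The values of 1 such gene are not reported here. Members and lists were chosen with earlier results of these data known. Depth per library is unknown, and no library could be left out.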

Additional observations from a re-analysis of the deposited data

How the results depend on the processing

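The 2 members called higher became 1 at a Cuffdiff q under 0.01, 0 after Benjamini-Yekutieli adjustment and 0 with normal p-values of the deposited statistic. The 1 other pathway gene called higher became 0 under the last 2 of these settings. Over all named tested rows, Benjamini-Yekutieli adjustment left 0 calls, since its smallest adjusted p is 0.0571, and normal p-values left 23. No count of members or other pathway genes moved at a q under 0.10 or without rows that share a span or symbol, and both counts of lower calls were 0 under all 5 alternatives. The members' median log2 fold change of 0.14 became 0.10 to 0.11 over its 3 alternatives. Centring on the median of all named tested rows (0.02) turned the sign of 0 of 47 genes. No paired analysis was possible because the tables hold no value per library, and leaving out replicates was not run for the same reason.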

Other observations

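Called genes that lie next to another called gene were not rare in these tables. Of the 203 named genes called higher, 31 (15.3%) had another gene called higher within 50 kb, as Gdf10 and Gdf2 do, and of the 50 called lower, 3 (6.0%) had one called lower. These counts describe the deposited calls, and rows that share a span are among them.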
